A study of Rattus norvegicus with 12 samples.

Results

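Sox7, Sox17, Sox18, Erg, Fli1, Ets1, Klf2, Klf4, Nr2f2 and Prox1 are transcription factors that set the identity of endothelial cells (ECs) or carry their response to blood flow. Their RNA levels were read in ECs sorted from the rat ductus arteriosus (DA), the fetal vessel that joins the pulmonary artery to the aorta and closes after birth, and from the aorta. The 10 genes were chosen by name, out of 14503 genes with a probe set of their own on the array. Each was read from the probe set annotated to its symbol alone, the brightest one where a gene had more than one.

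All animals were Wistar rats delivered by cesarean section, and the labels name no genotype or drug. There were 4 groups of 3 arrays each, 12 arrays in all. These were DA ECs and aortic ECs of neonates taken 30 minutes after the onset of breathing (N group), and DA ECs and aortic ECs of fetuses on gestational day 21 that had not breathed (F group). The vessels were dispersed with enzymes, and cells positive for CD31 and negative for CD45 were collected by FACS. Each array carried RNA accumulated over repeated sorts of many litters, and the replicates are therefore such pools, whose spread the p-values measure.

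SOX proteins of the F subgroup (Sox7, Sox17, Sox18) bind DNA through an HMG box and act in arterial specification and in the formation of lymphatic vessels, Sox17 above all on the arterial side. The ETS factors Erg, Fli1 and Ets1 bind enhancers of many genes that define ECs, often next to SOX sites. Klf2 and Klf4 are zinc finger factors that laminar shear stress induces through the MEK5, ERK5 and MEF2 route and that restrain inflammatory genes. Nr2f2 (COUP-TFII) is the nuclear receptor that maintains venous identity, and Prox1 is the homeobox factor that specifies lymphatic ECs. At birth the flow through the DA changes as the lungs open, so the design allows these factors to be compared between vessels and across the first minutes of breathing.

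The deposited values are log2 signals, with array medians of 5.63 to 5.76. The poly-A spike lys, with which the study marked low signals, averaged 4.44, and the 18690 probe sets that averaged at least as much were tested. All 10 factors passed, and 8 of them were above the lys signal of the same array on all 12 arrays, while Nr2f2 was so on 11 and Prox1 on 10. All 15 endothelial markers with a probe set passed, as did 18690 of all 26468 probe sets, so passing alone does not tell cell types apart. Of 8 leukocyte markers 5 lay below lys, among them Ptprc, which encodes CD45, whereas all 10 smooth muscle markers, 7 of 8 fibroblast markers and 6 of 7 cardiomyocyte markers passed it. Calls were made with limma at an adjusted p under 0.05 (Benjamini-Hochberg over all tested probe sets).

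Between the vessels, Sox17 was lower in DA ECs than in aortic ECs, and it was the only one of the 10 factors that passed the test. Over both stages 8 of the 10 factors had a negative difference, with a median of -0.14 on the log2 scale against 0 for all probe sets, of which 50.1% were negative. In that comparison 8.12% of all tested probe sets were called, 4.93% lower and 3.19% higher, so that 1 of 10 factors lies near this background. In the N group 1 of the 10 factors (Sox17) was called, against 3.14% of all probe sets (1.87% lower, 1.26% higher), and the median difference was -0.11. In the F group limma called 0 of the 10, against 3.77% of all probe sets (2.28% lower, 1.49% higher), with a median difference of -0.22. There the unadjusted p of 3 factors (Sox17, Ets1 and Prox1) was under 0.05, as was that of 13.2% of all probe sets. After Benjamini-Hochberg the methods' t-test called 0 of the 10.

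**Figure D1:**
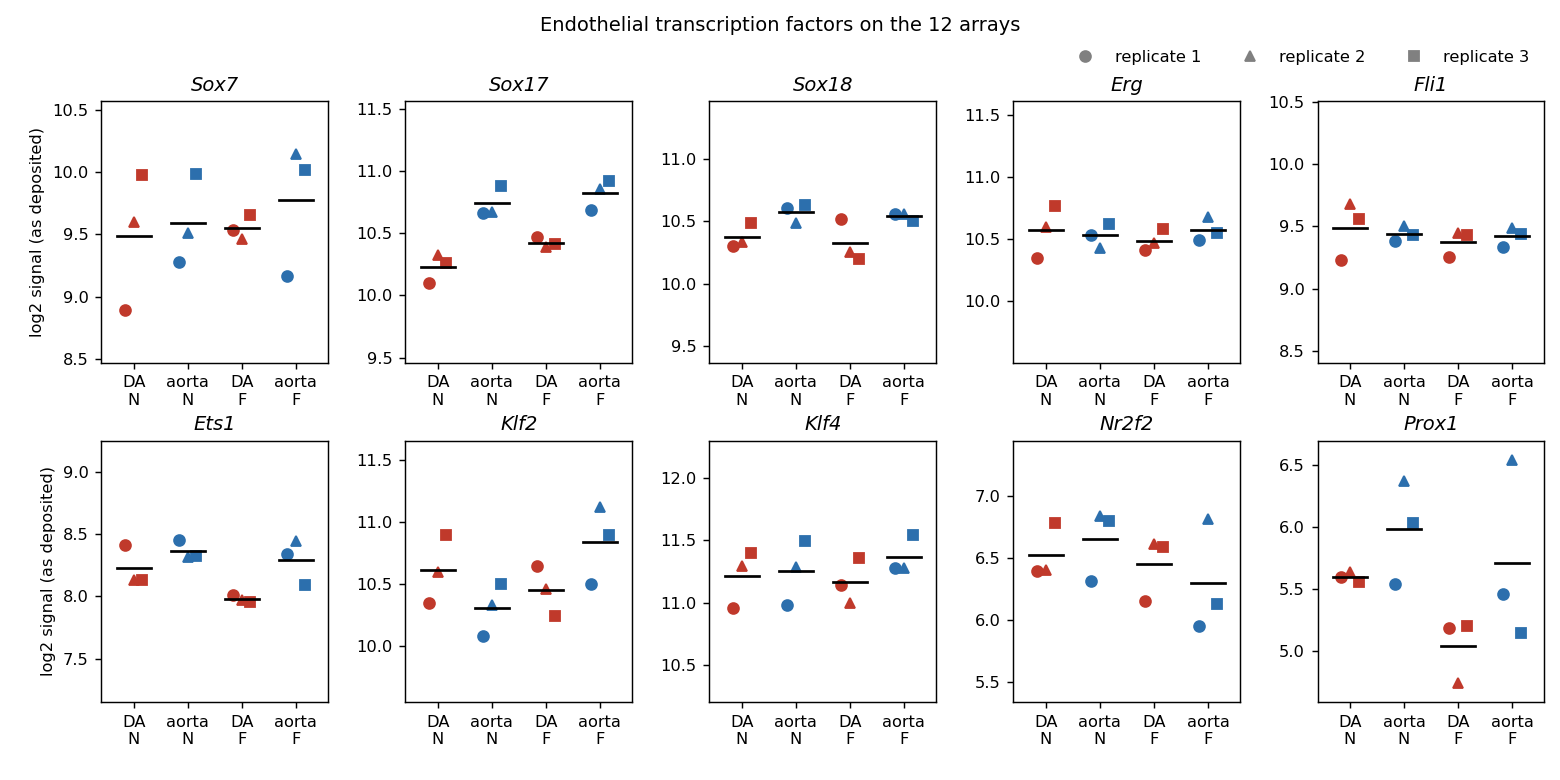
Log2 signal as deposited (vertical axis) of the 10 factors on each of the 12 arrays, in the groups DA N, aorta N, DA F and aorta F. Symbols stand for the replicate number and black lines for group means (n = 3). The DA and aorta arrays separate for Sox17, where the highest DA array (10.47) lies below the lowest aorta array (10.67), and overlap for the other factors. The share of all probe sets that separate so was not counted.

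Sox17 (probe set 10867406) is the SOXF factor required for arterial differentiation in mice. It had log2 signals of 10.10, 10.33 and 10.26 in DA N arrays, against 10.67, 10.67 and 10.88 in aorta N arrays. In the F group it had 10.47, 10.39 and 10.41 in the DA, against 10.69, 10.85 and 10.92 in the aorta. The 6 DA arrays and the 6 aorta arrays did not overlap at either stage. How many of all probe sets separate in this way was not counted, so the separation is description only. The difference, DA minus aorta, was -0.45 over both stages (SE 0.08, 95% confidence interval -0.63 to -0.27, adjusted p = 0.00379 by limma), which is 0.73 times the aortic level. It was negative in all 6 pairs of arrays with the same replicate number, between -0.62 and -0.21. Leaving out any 1 of the 12 arrays kept this call, with adjusted p between 0.00436 and 0.0135.

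Taken stage by stage, the Sox17 difference was -0.51 in the N group (SE 0.12, adjusted p = 0.0329 by limma) and -0.40 in the F group (SE 0.12, adjusted p = 0.101 by limma). With the replicate number fitted as a block, both were called, at adjusted p = 0.00635 in the N group and 0.0221 in the F group. That fit called 7.27% of all probe sets in N (4.28% lower) and 10.4% in F (6.5% lower), so 1 of 10 factors lies near this background. The call of the main fit in the N group held in 4 of the 12 fits that left out 1 array. It was lost without DA N replicate 1, 2 or 3 (adjusted p = 0.119, 0.0758 and 0.0736), without aorta N replicate 1, 2 or 3 (0.0818, 0.0821 and 0.138), without DA F replicate 2 (0.0544) and without aorta F replicate 2 (0.0571), all by limma. The vessel difference did not itself differ measurably between the stages (N minus F -0.11, 95% confidence interval -0.48 to 0.25).

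Markers of other cells also differed between the vessels beside Sox17. The summed signal of the 10 smooth muscle markers, as log2, lay between 11.80 and 12.16 in DA N arrays against 11.26 to 11.43 in aorta N arrays, and between 11.77 and 11.83 in DA F arrays against 11.18 to 11.38 in aorta F arrays. Of these markers 5 rose and 1 fell in the DA over both stages (7 and 1 in the block fit), and 0 of the 10 lay below lys. Of all probe sets the block fit called 7.71% higher and 10.1% lower. The summed signal of the 8 fibroblast markers, 1 of which (Lum) lay below lys, was between 13.07 and 13.25 in DA N arrays against 13.09 to 13.27 in aorta N arrays, and between 12.89 and 13.16 in DA F arrays against 13.07 to 13.26 in aorta F arrays. Among the 7 tested 1 rose and 2 fell, and with the block 3 rose and 2 fell. The summed signal of the 7 cardiomyocyte markers, with Ryr2 below lys, was between 7.89 and 8.24 in DA N arrays against 8.23 to 8.57 in aorta N arrays, and between 8.02 and 8.11 in DA F arrays against 8.23 to 8.42 in aorta F arrays. Among the 6 tested 0 rose and 1 fell, and with the block 2 fell. The summed signal of the 15 endothelial markers lay between 14.77 and 14.84 in DA N arrays against 14.89 to 14.93 in aorta N arrays, and between 14.75 and 14.82 in DA F arrays against 14.85 to 14.95 in aorta F arrays. Of these 15 over both stages 0 rose and 3 fell, and the same counts held with the block. Their differences were negative for 11 of 15, with a median of -0.16. Over both stages 1 of 3 tested leukocyte markers fell, and 1 of 4 mesothelial and 1 of 3 Schwann cell markers rose. Summed leukocyte signal was 8.44 to 8.70 in DA F against 8.85 to 8.96 in aorta F arrays, and 8.45 to 8.76 in DA N against 8.74 to 9.13 in aorta N arrays. Summed erythroid signal was 7.40 to 7.81 in DA N against 8.43 to 8.70 in aorta N arrays, and 8.40 to 9.89 in DA F against 8.43 to 9.01 in aorta F arrays. The part of these markers in the Sox17 difference was not tested, and in sorted bulk RNA fewer cells of a type and less RNA per cell cannot be told apart.

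The genes whose profile over the 12 arrays was most like that of Sox17 were Rara, a retinoic acid receptor, Pias1, a SUMO ligase, and Sox13, a SOX factor of the D subgroup. The measure was the root mean square difference of values centred on each gene's mean, which was 0.0961, 0.0964 and 0.0990 for these genes, against a median of 0.323 over 11898 probe sets compared.

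Sox18 (probe set 10852595), the SOXF factor whose mutation disturbs lymphatic vessels in mice, had 10.30, 10.33 and 10.49 in DA N arrays against 10.61, 10.49 and 10.63 in aorta N arrays. In the F group it had 10.52, 10.26 and 10.20 in the DA against 10.56, 10.56 and 10.50 in the aorta. The DA value was the lower of each pair with the same replicate number, but the ranges of the vessels overlapped through DA F replicate 1. The difference over both stages was -0.21 (SE 0.08, 95% confidence interval -0.39 to -0.03, adjusted p = 0.183 by limma) and was not called.

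Sox7 (probe set 10781022), the remaining SOXF factor, varied more between pools than between groups. It had 8.89, 9.60 and 9.98 in DA N arrays against 9.27, 9.51 and 9.99 in aorta N arrays, and 9.53, 9.47 and 9.65 in DA F arrays against 9.17, 10.15 and 10.01 in aorta F arrays. Its SD within groups was 0.43, above that of 94.7% of tested probe sets, where that of Sox17 was 0.11, above 8.70% of them. Its mean over the 4 groups was 9.22 for replicate 1, 9.68 for replicate 2 and 9.91 for replicate 3, so the replicate number moved with the signal. The difference of -0.16 over both stages had a wide interval (-0.62 to 0.29), so that a difference within it could not be told from 0 with these arrays.

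**Figure D2:**
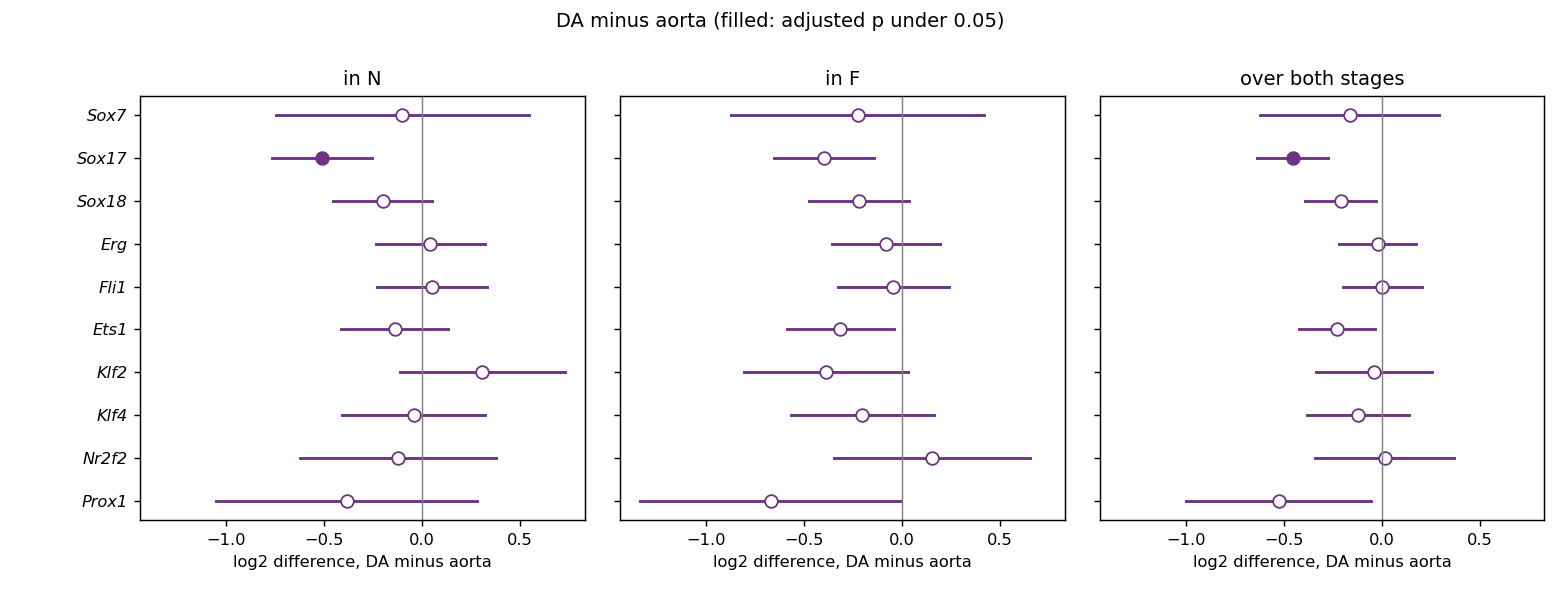
Log2 difference, DA minus aorta (horizontal axis), of the 10 factors in the N group, in the F group and over both stages, with 95% confidence intervals from limma. Filled symbols mark an adjusted p under 0.05, which Sox17 reached in the N group and over both stages, at -0.51 and -0.45.

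Erg and Fli1, ETS factors that sustain the EC programme in the adult vessel, had overlapping signals in the vessels at both stages. Erg (probe set 10753279) had 10.35, 10.60 and 10.77 in DA N arrays against 10.53, 10.43 and 10.63 in aorta N arrays, and 10.42, 10.47 and 10.58 in DA F arrays against 10.49, 10.68 and 10.55 in aorta F arrays. The groups overlapped, and the difference over both stages was -0.02 with an interval of -0.22 to 0.18, so that the DA level lay between 0.861 and 1.13 times the aortic level. Fli1 (probe set 10916000) had 9.23, 9.68 and 9.56 in DA N arrays against 9.39, 9.505 and 9.43 in aorta N arrays. In the F group it had 9.26, 9.45 and 9.43 in the DA against 9.34, 9.49 and 9.44 in the aorta. Its difference over both stages was 0.0033, with an interval from -0.20 to 0.20, or 0.873 to 1.15 times the aortic level. The sign of such small differences turned mostly with the arrays used. It turned in 3 of the 12 fits without 1 array for Erg and in 6 of 12 for Fli1, and among the other 7 alternatives in 0 for Erg and in 1 for Fli1, that with arrays centred on their medians.

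The sequence just before the RefSeq start of Erg is shown because Erg was 1 of only 2 factors for which the RefSeq promoter table held a window, and because letters of the SOX and the ETS cores both occur in it. The window holds the 250 bases before the start on the minus strand (GRCr8 chr11:48251567-48251816) and lies within the annotated span of the gene, which has other starts. It is printed 5′ to 3′, with the SOX core (ACAAT, or ATTGT on the other strand) and the ETS core (GGAA, or TTCC on the other strand) in capitals.
Erg: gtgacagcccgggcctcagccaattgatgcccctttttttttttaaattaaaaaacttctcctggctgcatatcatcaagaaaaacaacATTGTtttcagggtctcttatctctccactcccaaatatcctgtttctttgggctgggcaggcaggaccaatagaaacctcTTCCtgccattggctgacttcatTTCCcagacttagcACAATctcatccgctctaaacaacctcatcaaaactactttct
The SOX core began 161 and 43 bases before the start and the ETS core 80 and 57 bases before it, and none of the 4 matches overlapped. Of 33469 windows of this length in the table, 30% held the SOX core on either strand, 93.2% the ETS core and 28.2% both. Such matches describe letters and not binding.

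Ets1 (probe set 10908896), an ETS factor active in sprouting ECs, had 8.41, 8.13 and 8.13 in DA N arrays against 8.45, 8.31 and 8.33 in aorta N arrays. In the F group it had 8.01, 7.97 and 7.95 in the DA against 8.34, 8.44 and 8.09 in the aorta. The ranges of the vessels overlapped in the N group, where DA replicate 1 lay within that of the aorta. The DA value was the lower in all 6 pairs with the same replicate number, by 0.04 to 0.47. The difference over both stages was -0.23 (SE 0.09, 95% confidence interval -0.42 to -0.03) at an adjusted p of 0.179 by limma, and it was called with the replicate number as a block, at 0.0472. With the block 17.8% of all probe sets were called.

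Klf2 (probe set 10790670) was the factor with the largest difference of the vessel contrast between the stages among the 10, in a test that it did not pass. It had 10.35, 10.60 and 10.89 in DA N arrays against 10.08, 10.33 and 10.50 in aorta N arrays, so that the DA was the higher in 3 of 3 pairs. In the F group it had 10.65, 10.46 and 10.25 in the DA against 10.50, 11.12 and 10.90 in the aorta, where the DA was the lower in 2 of 3 pairs and replicate 1 went the other way. The groups overlapped at both stages. The differences, DA minus aorta, were 0.31 in the N group (95% confidence interval -0.11 to 0.73, adjusted p = 0.732 by limma) and -0.39 in the F group (-0.81 to 0.03, adjusted p = 0.438). Over both stages the difference was -0.04 (-0.34 to 0.26).

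Klf4 had signals in the DA close to those in the aorta on its brightest probe set (10873814). They were 10.95, 11.29 and 11.40 in DA N arrays against 10.98, 11.29 and 11.50 in aorta N arrays, and 11.14, 10.997 and 11.36 in DA F arrays against 11.28, 11.28 and 11.55 in aorta F arrays. The difference was -0.12 over both stages, with an interval from -0.38 to 0.14. The second probe set of Klf4 (10876838) gave -0.38 in the F group (interval -0.68 to -0.08, adjusted p = 0.218 by limma) and 0.08 in the N group (-0.23 to 0.38), where the brightest gave -0.20 and -0.04 for the same comparisons. The probe sets thus had opposite signs in the N group, and neither was called.

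Nr2f2 (probe set 10722736), the venous factor, lay below lys on 1 array, DA F replicate 1, where the lys signal was the highest of all arrays (6.17). It had 6.39, 6.40 and 6.78 in DA N arrays against 6.32, 6.83 and 6.80 in aorta N arrays, and 6.15, 6.61 and 6.59 in DA F arrays against 5.95, 6.81 and 6.13 in aorta F arrays. The groups overlapped, and the difference over both stages was 0.01 with an interval from -0.34 to 0.37, which leaves room for a change in either direction.

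Prox1 (probe set 10770680), the lymphatic factor, had a wide spread, with an SD within groups of 0.44. It lay below the lys signal of its array on 2 arrays, DA F and DA N replicate 1, where lys was highest (6.17 and 5.78). It had 5.59, 5.63 and 5.56 in DA N arrays against 5.54, 6.37 and 6.03 in aorta N arrays, and 5.19, 4.74 and 5.20 in DA F arrays against 5.46, 6.54 and 5.14 in aorta F arrays. Both aorta arrays of replicate 2 were high, and in replicates 1 and 3 one of the stages gave a difference above 0. Over both stages the difference was -0.53 (SE 0.22, 95% confidence interval -0.997 to -0.06, adjusted p = 0.206 by limma). It was not called under any of 19 alternatives, where it ranged from -0.67 to -0.32.

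Between the stages, no factor passed the test in either vessel. In the DA limma called 0 of the 10, and 0 had an unadjusted p under 0.05, against 0.00535% of all probe sets called, which is 1 probe set, and 2.01% at an unadjusted p under 0.05. In the aorta it called 0 of the 10, with 1 (Klf2) at an unadjusted p under 0.05, against 0% of all probe sets called and 1.38% at an unadjusted p under 0.05. The methods' t-test after Benjamini-Hochberg also called 0 of the 10 in each vessel. The median difference, N minus F, was 0.08 for DA ECs and -0.01 for aortic ECs.

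**Figure D3:**
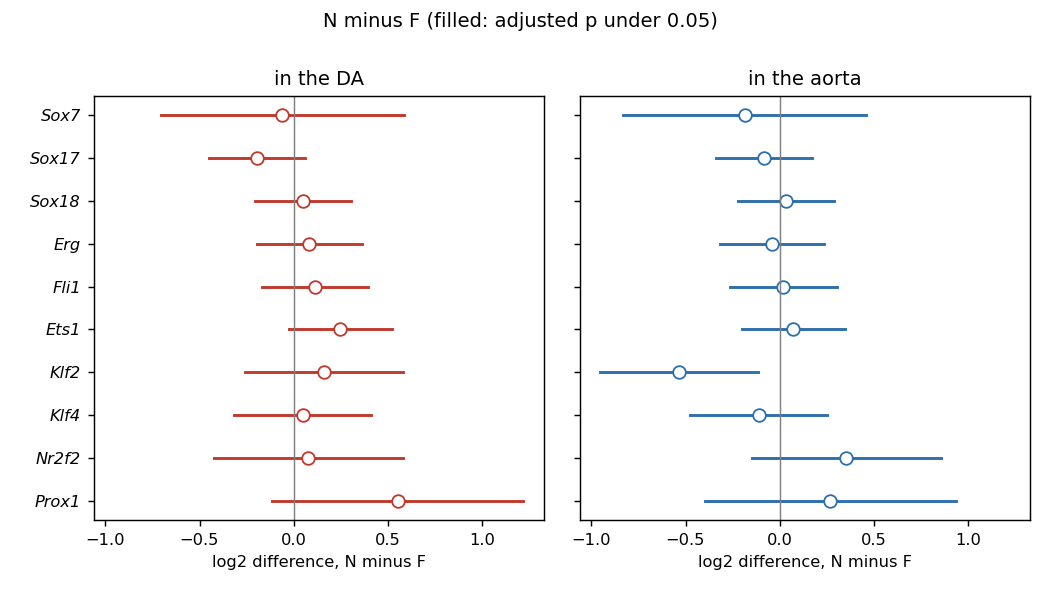
Log2 difference, N minus F (horizontal axis), of the 10 factors in each vessel, DA left and aorta right, with 95% confidence intervals from limma. All symbols are open because no adjusted p lay under 0.05, and the interval of Klf2 in the aorta (-0.95 to -0.12) is the one that does not reach 0.

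In the aorta Klf2 had 10.08, 10.33 and 10.50 in N arrays, against 10.50, 11.12 and 10.90 in F arrays, with replicate 3 of N just above replicate 1 of F. The difference, N minus F, was -0.53 (SE 0.19, 95% confidence interval -0.95 to -0.12, unadjusted p = 0.0166, adjusted p = 0.9999 by limma) and was negative in 3 of 3 pairs with the same replicate number, at -0.42, -0.79 and -0.40. In the DA the Klf2 difference was 0.16 (-0.26 to 0.58), with pairs at -0.30, 0.14 and 0.65. The difference between these contrasts, DA minus aorta, was 0.70 (SE 0.27, interval 0.10 to 1.29, unadjusted p = 0.025, adjusted p = 0.99997 by limma), positive in 19 of 19 alternatives and called in 0 of them. For this difference limma called 0 of the 10 factors, and 0% of all probe sets, while Klf2 alone of the 10 had an unadjusted p under 0.05, as did 0.931% of all probe sets (174 of 18690). The second probe set of Klf4, the other flow factor, had 0.45 for the same difference (0.03 to 0.88, unadjusted p = 0.0387, not called), and the brightest had 0.16 (-0.36 to 0.68). Immediate early genes, which tissue dispersal can raise, were positive for this difference in 15 of 16, with a median of 0.12. All 9 tested heat shock genes were positive too, with a median of 0.21, against 0.02 for all probe sets. Limma called 0 genes of either list, and their part in the Klf2 and Klf4 differences was not tested.

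No SOXF or ETS factor was called between the stages. Sox17 was lower in N than in F in all 6 pairs with the same replicate number, with a difference of -0.20 in the DA (95% confidence interval -0.45 to 0.06) and of -0.08 in the aorta (-0.34 to 0.17), neither of which was called. Erg had 0.08 in the DA (-0.20 to 0.36) and -0.04 in the aorta (-0.32 to 0.24). The largest stage difference in the DA was that of Prox1, at 0.55 with an interval from -0.11 to 1.22. All 7 lymphatic markers tested, Prox1 included, had positive differences in both vessels, with medians of 0.55 (DA) and 0.21 (aorta), and limma called 0 of the 7 in either. For all probe sets the medians were 0.017 (DA) and 0.00075 (aorta), and 44.6% and 49.7% of the differences were negative.

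The families of the 10 factors were then read between the vessels over both stages, from lists chosen by family. In the SOX family 4 of 14 tested genes fell in the DA and 1 rose, beside the 4.93% and 3.19% of all probe sets. With the block 4 fell and 2 rose, beside 10.1% and 7.71% of all probe sets. Sox6 and Sox5, partners of the SOXD subgroup, had differences of -1.08 (SE 0.11, adjusted p = 4.76e-05 by limma) and -0.68 (SE 0.10, adjusted p = 0.00093), Sox17 followed, and Sox13 of the same subgroup had -0.45 (adjusted p = 0.0157). Sox6 lay between 4.66 and 5.14 in DA arrays against 5.88 to 6.22 in aorta arrays, and Sox5 between 4.62 and 5.13 in DA arrays against 5.32 to 5.75 in aorta arrays. Both were near the spike control in the DA and above the lys signal of the same array on 9 of 12 arrays. The call of Sox13 was lost with quantile normalization. Sox11 rose by 0.40 (adjusted p = 0.0257), a call lost without aorta F replicate 2, DA F replicate 2, aorta N replicate 1 or aorta N replicate 3, at adjusted p of up to 0.0728.

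In the ETS family limma called 0 of 19 tested genes, and with the replicate number as a block it called 3, 1 higher and 2 lower, beside 17.8% of all probe sets (7.71% higher, 10.1% lower) called with the block. The lowest differences in the family were -0.29 for Elk4 (adjusted p = 0.0744 by limma) and that of Ets1, and the highest was 0.28 for Ets2 (adjusted p = 0.358). In the KLF family 3 of 15 fell and 0 rose. Klf12, a transcriptional repressor, had -0.57 (adjusted p = 0.00331) and Klf10, which TGF-beta induces, had -0.50 (adjusted p = 0.00113), and both kept their calls in all 12 fits without 1 array. Klf9 had -0.43 at an adjusted p of 0.0462, and its call held in 1 of those 12 fits, that without DA F replicate 1, the adjusted p reaching 0.119 in the others. Of the 4 relatives of Nr2f2 and Prox1 that were tested, themselves included, 1 rose and 0 fell. Nr2f1 (COUP-TFI) was higher in DA arrays, at 6.33 to 6.79 against 5.51 to 5.96 in aorta arrays, with a difference of 0.76 (SE 0.11, adjusted p = 0.000735 by limma), while its paralog Nr2f2 did not differ measurably. Among 20 other endothelial transcription factors 3 fell and 0 rose (5 and 1 with the block), namely Tcf4, a basic helix-loop-helix factor (-0.90, adjusted p = 0.000335), the homeobox factor Meox2 (-0.91, adjusted p = 0.00685) and Sox13, which is also counted in the SOX family.

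**Figure D4:**
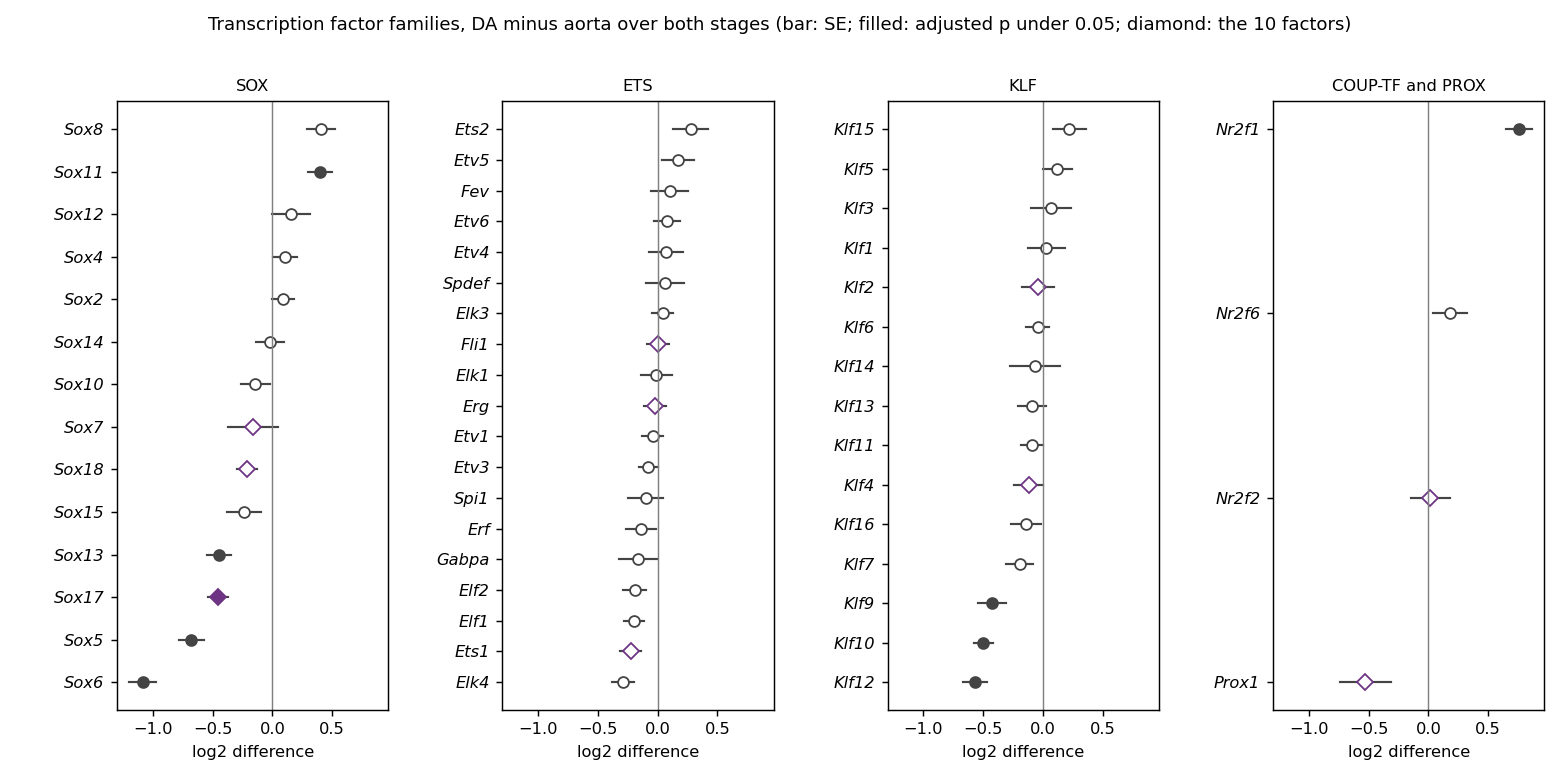
Log2 difference, DA minus aorta over both stages (horizontal axis, with SE), of the tested genes of the SOX, ETS, KLF and COUP-TF and PROX families. Diamonds are the 10 factors and filled symbols mark an adjusted p under 0.05 by limma. Sox6 (-1.08) and Nr2f1 (0.76) stand farthest from 0, and no ETS gene is filled.

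Genes that laminar flow is known to raise or lower in cultured ECs were read beside Klf2 and Klf4, which showed no called difference. Of 12 tested genes raised by flow, 3 fell in the DA and 1 rose, with a median of -0.25. In the block fit 6 fell and 1 rose, beside the 10.1% and 7.71% of all probe sets. Cyp1b1, a monooxygenase, had -1.56 (adjusted p = 3.2e-06 by limma), thrombomodulin (Thbd), an anticoagulant receptor and known target of Klf2, had -0.75 (adjusted p = 0.000923), the connexin Gja4 had -0.46 (adjusted p = 0.00321) and the water channel Aqp1 had 0.51 (adjusted p = 0.0104). Nos3, the endothelial nitric oxide synthase that Klf2 also induces, named after its value was seen, had -0.24 and was not called. Of 13 tested genes lowered by flow, 5 fell and 1 rose (5 and 2 with the block), with a median of -0.11. The interleukin Il6 had -1.64 (adjusted p = 8.01e-05), the adhesion molecule Vcam1 -1.52 (adjusted p = 8.07e-07), the chemokine Cxcl1 -0.79 (adjusted p = 0.0016) and the matricellular gene Ctgf 0.75 (adjusted p = 0.00063). Ace and Icam1, named after their values were seen, were the other 2 that fell, at -0.59 and -0.45. The value of Ctgf averages both stages. It was called in the F group, at 1.13 (adjusted p = 0.00086 by limma), whereas in the N group 0 of these 13 genes were called higher. For the difference of the vessel contrast between the stages limma called 0 of these 13 genes, and 0% of all probe sets. Among the calls over both stages, genes raised and genes lowered by flow both held more falls than rises in the DA. All probe sets did so too, at 4.93% lower and 3.19% higher. Whether flow had a part in these counts was not tested. Of 16 tested genes that sense flow or lie on the MEK5, ERK5 and MEF2 route, 1 was called (2 lower and 1 higher with the block), the kinase Map3k2 at -0.48 (adjusted p = 0.0373), and its call held in 3 of 12 fits without 1 array, those without aorta F replicate 3, aorta N replicate 3 or DA N replicate 1, reaching 0.0921 in the others.

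**Figure D5:**
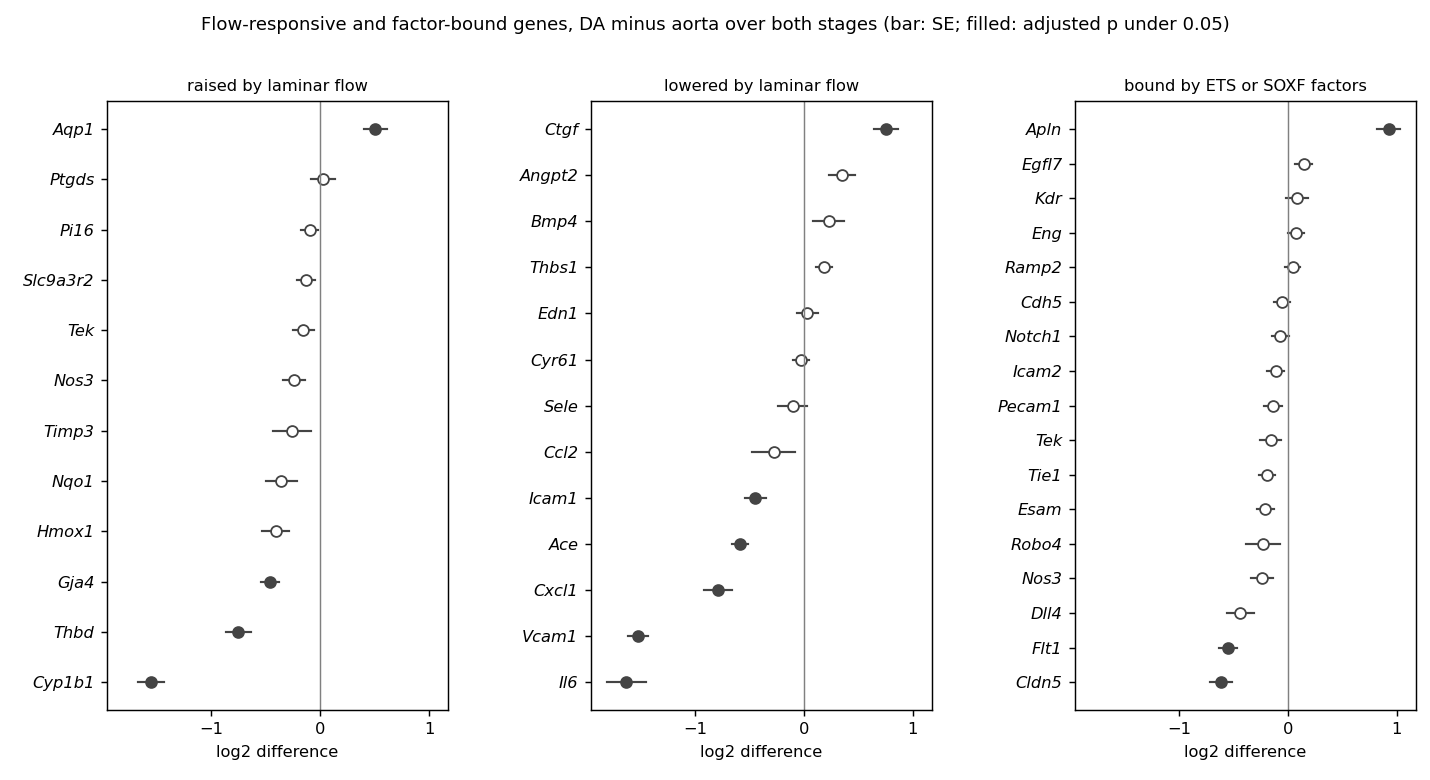
Log2 difference, DA minus aorta over both stages (horizontal axis, with SE), of genes raised by laminar flow, genes lowered by laminar flow and endothelial genes bound by ETS or SOXF factors. Filled symbols mark an adjusted p under 0.05 by limma. Vcam1 (-1.52), Il6 (-1.64) and Cyp1b1 (-1.56) lie farthest to the left and Apln (0.92) farthest to the right.

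Of 17 tested endothelial genes known to be bound by ETS or SOXF factors, 2 fell in the DA and 1 rose (4 and 1 with the block), with a median of -0.14. Of all probe sets 4.93% fell and 3.19% rose (10.1% and 7.71% with the block), shares that also stand beside the lists that follow. The tight junction gene Cldn5, whose promoter SOX18 binds in humans, had -0.62 (adjusted p = 0.00209 by limma), the VEGF receptor Flt1 had -0.55 (adjusted p = 0.000815) and the peptide hormone Apln had 0.92 (adjusted p = 0.000117). Cldn5 and Flt1 are also on the list of endothelial markers, so their falls are counted in both lists. Among 15 arterial markers 4 fell and 2 rose (6 and 2 with the block), and 11 had negative differences, with a median of -0.14. The Notch ligand Jag2 had -1.26 (adjusted p = 1.19e-06), the BMP9 receptor Acvrl1 -0.85 (adjusted p = 3.84e-05), the semaphorin receptor Nrp1 0.49 (adjusted p = 0.00231) and the netrin receptor Unc5b 0.45 (adjusted p = 0.0489), the last of which kept its call in 3 of 12 fits without 1 array (without aorta F replicate 2, aorta N replicate 3 or DA N replicate 1) and reached 0.122 in the others. Of the 16 immediate early genes, which tissue dispersal can raise, 6 fell in the DA (11 with the block) and 16 of 16 had negative differences, with a median of -0.28. Their summed signal, as log2, lay between 14.99 and 15.09 in DA N arrays against 15.19 to 15.27 in aorta N arrays, and between 14.85 and 15.08 in DA F arrays against 15.20 to 15.32 in aorta F arrays. Of 9 tested heat shock genes, 3 fell (5 with the block) and 0 rose, with a median of -0.31, and 9 of 9 had negative differences in the F group and 7 of 9 in the N group. Their summed signal lay between 13.46 and 13.87 in DA N arrays against 13.60 to 14.12 in aorta N arrays, and between 13.38 and 13.71 in DA F arrays against 13.76 to 14.26 in aorta F arrays. The part of the immediate early and heat shock genes in the differences of Sox17, Klf2, Klf4 and the flow genes was not tested.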

How the data were processed

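The authors ran 12 Affymetrix arrays of the type Rat Gene 1.0 ST with RNA of sorted DA and aortic ECs. They deposited 1 log2 signal for each probe set and array, already summarised and normalized by a method not given in the sources used here, and these signals were used unchanged. The number of arrays limits the precision. Of 26468 probe sets 15307 carried 1 gene symbol, 323 several and 10838 none, by the platform annotation updated through RefSeq. Tests ran on the 18690 probe sets that averaged at least the lys spike (4.44), leaving out 7778. The study reports leaving out more by lys, so the t-test run here covered a larger set than its own.

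A model of 4 group means on all 12 arrays was fitted with R 4.3.3 and limma 3.58.1. From it came DA minus aorta for N, for F and averaged over both, N minus F for each vessel, and the interaction of vessel and stage. Tests were two-sided, and the procedure was first tested on simulated data. The methods' t-test, the filter, the scaling, the replicate block, the arrays fitted and each array in turn were varied.

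Arrays with the same replicate number deviated together from their group means, with correlations across probe sets from 0.539 to 0.82 (replicate 1), from 0.102 to 0.301 (replicate 2) and from 0.393 to 0.735 (replicate 3). Arrays of different numbers gave -0.738 to 0.368. The numbers were therefore also fitted as a block. The sources used here do not say what they mark. The lys signal differed with them too, lying between 4.53 and 6.17 (replicate 1), 4.16 and 4.78 (replicate 2), and 3.41 and 3.53 (replicate 3).

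The 10 factors and the lists of related genes (251 genes, of which 35 had no named probe set and were not analysed here) were chosen with earlier results of these data known. Of each list the genes named were the 3 highest and 3 lowest differences between the vessels over both stages at most, unless stated.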

Additional observations from a re-analysis of the deposited data

How the results depend on the processing

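Under the alternatives, Sox17 over both stages stayed called in 19 of 19, with differences between -0.49 and -0.42 on the log2 scale. The count of factors called in the F group was 0 in the main fit, 1 (Sox17) with the replicate block and 1 (Sox17) with a trended, robust variance prior. In the N group it was 1 in the main fit and 0 without the filter on low signals (Sox17 at adjusted p = 0.0608), with only the N arrays fitted (0.16), with the methods' t-test after Benjamini-Hochberg (0.204) and with that t-test unadjusted at 2-fold or more, and it lay between 0 and 1 over the fits without 1 array. The fit on fewer arrays has fewer degrees of freedom. At 2-fold or more Sox17 could not be called, since its difference in N was -0.51. For the losses without the filter and with the t-test after Benjamini-Hochberg the cause was not tested. Over both stages the count was 1 in the main fit and 2 with the replicate block, which added Ets1. Between the stages, and for the interaction of vessel and stage, 0 factors were called in every alternative run. Over all probe sets, the main fit called 705 (F), 586 (N) and 1518 (both stages), and the fit with the replicate block 1951, 1358 and 3327. The methods' t-test after Benjamini-Hochberg called 67 in F and 44 in N, and unadjusted at 2-fold or more 262 and 242. With only the N arrays fitted 318 were called in N, and 344 without aorta N replicate 1, 371 without aorta N replicate 2 and 318 without DA N replicate 2. Between N and F in the DA 0 to 10 probe sets were called, with 10 under the block, and in the aorta 0 to 3. Among the related genes, the calls over both stages of Klf9, Map3k2 and Unc5b were also lost without the filter, those of Klf9 and Map3k2 with arrays centred on their medians, and those of Klf9, Unc5b and Sox13 with quantile normalization. The t-test was run between pairs of groups only, and not for the contrasts over both stages or the interaction.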
